A study of Mus musculus with 44 samples.

Results

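The 10 genes described here carry peptides to the cell surface on major histocompatibility complex (MHC) class I molecules. They are B2m, H2-K1, H2-D1, H2-Q6, H2-Q7, Tap1, Tap2, Tapbp, Tapbpl and Nlrc5. They were chosen by symbol from a table of 46078 genes, each is 1 row there, and all 10 passed the filter on low counts that left 14537 genes for testing. The measured cells were macrophages from C57BL/6 mice, drawn to the peritoneum by thioglycolate, from 1 isolate made of several mice, and the cells that had adhered were cultured in medium with serum. They were left without additions (control) or given 10 µg/mL of an extract of H9c2 cells, a rat heart cell line, 10 ng/mL of interleukin 4 (IL-4), or 100 ng/mL of lipopolysaccharide (LPS), and were taken at 8, 24 or 72 h. The labels name no genetic change, and every group shares the same isolate, so the 44 libraries in 12 groups are not separate animals. The labels do not say that replicates were separate cultures, so p-values measure only the spread between these samples, which may be technical. The study's title concerns whether molecules released by damaged cells push macrophages toward the inflammatory state that LPS brings about.

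A class I molecule is a heavy chain (here H2-K1, H2-D1, H2-Q6 or H2-Q7) held by the small light chain β2-microglobulin, the product of B2m. The proteasome cuts proteins of the cytosol into peptides, the transporter Tap1-Tap2 brings the peptides into the endoplasmic reticulum, and tapasin (Tapbp) and its relative TAPBPR (Tapbpl) help the heavy chain take up a peptide that binds well, before the complex goes to the surface for CD8+ T cells to read. Macrophages have the pathway at rest and raise it on interferon or Toll-like receptor signals, and Nlrc5 is a transcriptional activator of the class I genes that is itself induced by interferon.

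In GENCODE M21 (GRCm38), 7 of the 10 protein-coding genes lie in the MHC region of chromosome 17. Tapbp is at chr17:33915899-33929292, H2-K1 at chr17:33996017-34000347, Tap1 at chr17:34187553-34197225, Tap2 at chr17:34203527-34216321, H2-D1 at chr17:35262730-35267499, H2-Q6 at chr17:35424850-35430055 and H2-Q7 at chr17:35439155-35443773. B2m is at chr2:122147686-122153083, Tapbpl at chr6:125223933-125231860 and Nlrc5 at chr8:94434356-94527272. Counts were of reads over exons, and the strand setting of the counting is not given in the sources used here. Exons of Tap1 overlap those of Psmb9 on the opposite strand. Exons of Tap2, Tapbp and Nlrc5 also overlap genes on the opposite strand (Gm15821 and Gm20496, Gm19412, and 9330175E14Rik). Exons of Tapbp overlap those of Zbtb22 on the same strand as well. Without the strand setting, it is not known whether reads of the opposite-strand partners were kept apart.

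The promoters of the heavy chains are shown because they share the motif matches below, while the folds of these genes differed. Whether the matches bear on the folds was not tested. RefSeq windows of GRCm38.p6, from 250 bases before to 50 bases after each start, were matched for B2m, Tap1, Tapbp, H2-K1, H2-D1, H2-Q6 and H2-Q7. Below are 80 bases of 5 of them, 5′ to 3′ on the gene's strand. Capitals mark the letters that match GGGNNTTCC (a form of the NF-κB site), GAAANNGAA or GAANNGAAA (forms of the interferon-stimulated response element), searched on both strands. The last of these was added after the first search.
H2-K1: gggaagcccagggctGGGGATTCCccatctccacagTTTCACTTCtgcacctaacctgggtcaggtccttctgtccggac
H2-D1: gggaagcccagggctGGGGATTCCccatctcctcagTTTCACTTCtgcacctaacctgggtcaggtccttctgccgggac
H2-Q6: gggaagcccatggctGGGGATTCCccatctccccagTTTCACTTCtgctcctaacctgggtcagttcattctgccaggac
H2-Q7: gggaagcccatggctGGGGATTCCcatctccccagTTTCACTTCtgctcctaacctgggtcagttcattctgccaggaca
B2m: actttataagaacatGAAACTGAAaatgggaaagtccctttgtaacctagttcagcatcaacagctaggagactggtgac
The stretches are chr17:34000394-34000473 (- strand) for H2-K1, chr17:35262908-35262987 (+ strand) for H2-D1, chr17:35424662-35424741 (+ strand) for H2-Q6, chr17:35439007-35439086 (+ strand) for H2-Q7 and chr2:122147533-122147612 (+ strand) for B2m.

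All 4 heavy-chain promoters held GGGGATTCC, a match of GGGNNTTCC, followed by TTTCACTTC, a match of GAANNGAAA on the other strand. The 2 matches stood 12 bases apart in H2-K1, H2-D1 and H2-Q6 and 11 bases apart in H2-Q7. Of 32817 distinct promoter windows of the same length, 5.82% held GGGNNTTCC and 7.52% held GAANNGAAA. B2m held GAAACTGAA, a match of GAAANNGAA, which 8.55% of windows held. None of these 3 motifs had a match in the windows of Tap1 and Tapbp. TTCNNNGAA, a form of the gamma-activated site, had no match in the 7 windows and was in 8.29% of all, and CCAAT, the Y box core, was in all 7 and in 37.4% of all. The stretch of H2-K1 differed from that of H2-D1 at 3 of 80 positions and from that of H2-Q6 at 7, and the stretch of H2-Q7 equals that of H2-Q6 with 1 base left out. The first base of the GGGNNTTCC match stood at -171 from the start in H2-D1, -173 in H2-Q6 and -133 in H2-Q7, and at -125 or -111 in H2-K1, which has 2 windows. Matches of different motifs did not overlap, and they are a description of letters, not of bound factors.

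The depth of a library lay between 0.908 and 26.6 M (mega) gene counts, with 4 libraries in each of 8 groups and 3 in each of the other 4 (extract at 24 and 72 h, control at 72 h, IL-4 at 72 h). Levels are counts per M gene counts after TMM scaling (CPM), listed by replicate number, and folds, standard errors and adjusted p-values came from 1 edgeR quasi-likelihood fit over all libraries, with a gene called at an adjusted p under 0.05. Marker sets of macrophages summed to 9953 to 34773 CPM in every library. Markers of T cells (6 genes) summed to 0.535 to 29.9 CPM, of NK cells (5 genes) to at most 5.59 CPM, and of fibroblasts (6 genes) to 89.9 to 1090.2 CPM. Of the 5 NK genes, Prf1 had no count in 24 libraries, Ncr1 in 23, Klrb1c in 12, Gzma in 11 and Eomes in 7.

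Resting macrophages held the light chain and the classical heavy chains far above the loading machinery. Per kb of exon, in control at 24 h, B2m stood at 5746 ± 534 CPM (mean ± SD, n = 4), H2-D1 at 1264 ± 27.9 and H2-K1 at 464 ± 31.1 CPM per kb. Tapbp was next at 55.6 ± 8.31 CPM per kb. Tap1 (10.1 ± 0.741), H2-Q7 (10.1 ± 0.611), H2-Q6 (9.49 ± 0.176) and Tapbpl (9.27 ± 2.04 CPM per kb) lay within each other's spread. Tap2 was at 7.42 ± 1.39 and the activator Nlrc5 was lowest at 2.24 ± 0.416 CPM per kb. With LPS at 24 h H2-Q6 and H2-Q7 stood above Tap1 (117 ± 17.4 CPM per kb). H2-K1 (1996 ± 209.7) came within the spread of H2-D1 (2124 ± 237), and the means of H2-Q6 (332 ± 30.8) and H2-Q7 (278 ± 23.2 CPM per kb) stayed below that of Tapbp (378 ± 37.5 CPM per kb). At 72 h of LPS the mean of H2-K1 (2348 ± 580.5) stood above that of H2-D1 (1796 ± 184 CPM per kb), with overlapping libraries.

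**Figure D1:**
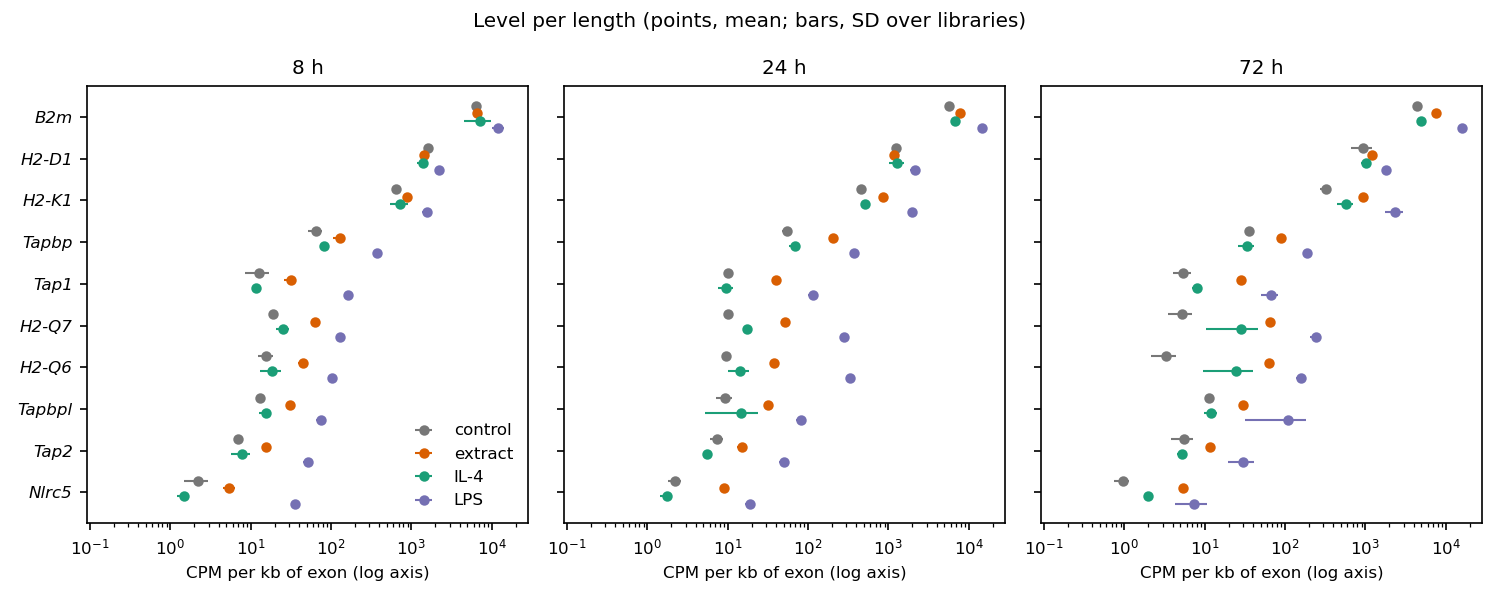
Mean level per kb of exon (log axis, points) with SD over libraries (bars) for the 10 genes, in control, extract, IL-4 and LPS groups at 8, 24 and 72 h. B2m, H2-D1 and H2-K1 lie at the top in every group, and the LPS points lie furthest to the right for each gene.

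LPS raised all 10 genes above control of the same time at 8, 24 and 72 h. The extract raised 8 at 8 h and 9 at 24 and 72 h, while IL-4 raised none at 8 h, 1 at 24 h and 5 at 72 h. No member was called lower with any stimulus. The share of all tested genes called higher with LPS was 21.3% at 8 h, 18.6% at 24 h and 16.1% at 72 h. With the extract it was 13.0%, 11.7% and 14.2%, and with IL-4 4.29%, 4.74% and 13.2% at the same times. The median log2 fold change of the 10 genes was 2.63, 2.92 and 2.96 with LPS, 1.21, 1.82 and 1.44 with the extract, and 0.17, 0.20 and 0.38 with IL-4, where the median of all tested genes lay between -0.07 and 0.05. The stimuli share their control libraries, so these comparisons are not independent of each other. The members summed to 9953 ± 408 CPM in control at 24 h, 13832 ± 595 with the extract (n = 3) and 28529 ± 1422 CPM with LPS.

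**Figure D2:**
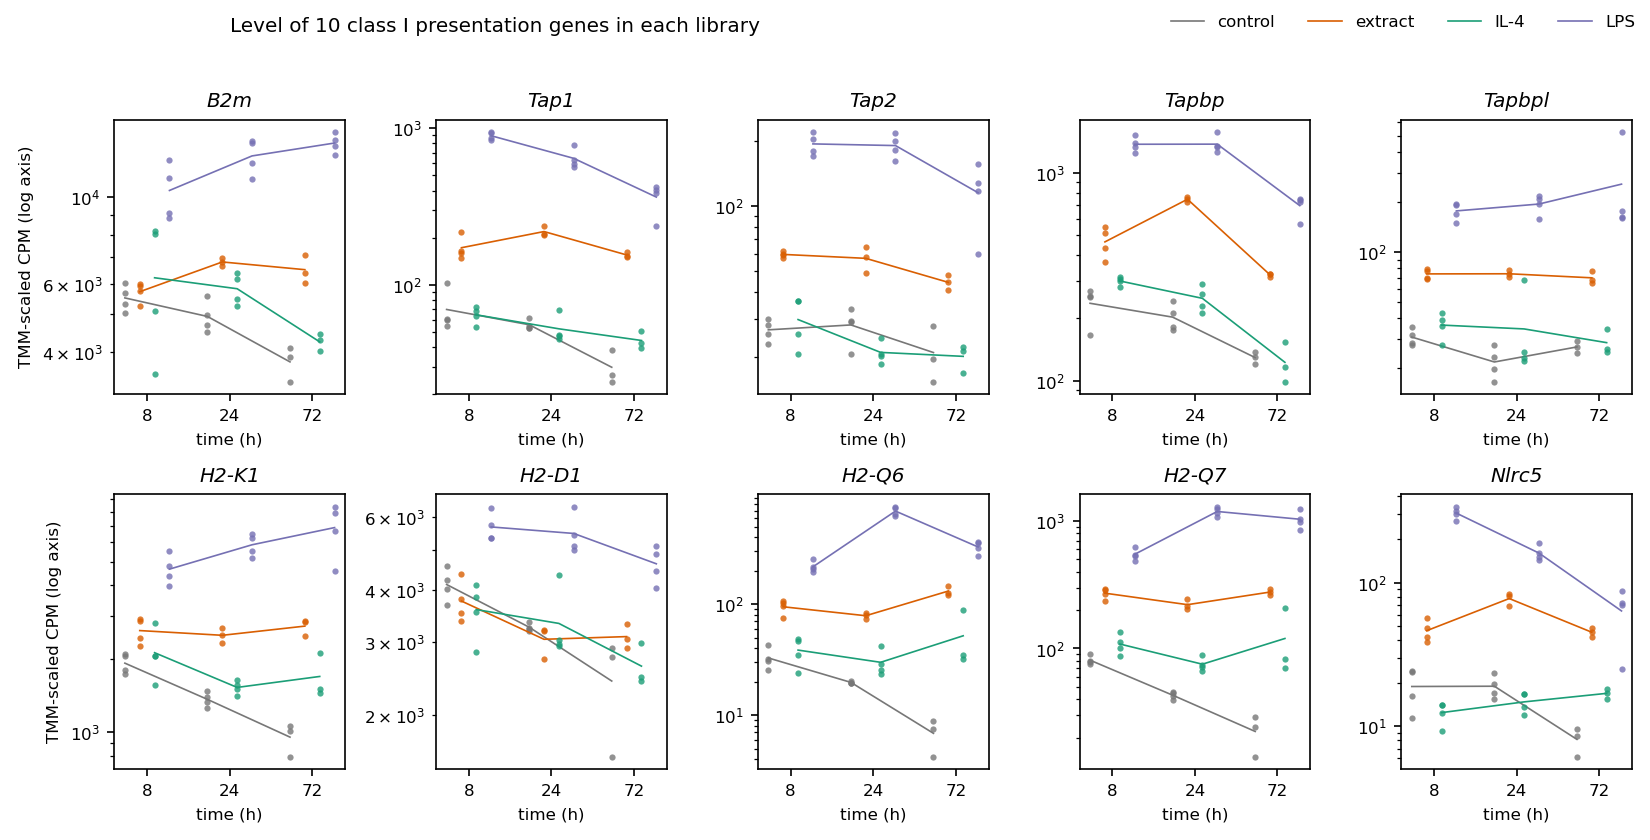
CPM (log axis) of each gene in each of the 44 libraries at 8, 24 and 72 h, with lines through the group means. LPS libraries lie above all control libraries of the same time for each gene, extract libraries lie between for most, and IL-4 libraries mix with control ones for most genes at 8 and 24 h.

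The light chain B2m rose with LPS at each time, and its fold change was larger at 72 h than at 8 h. Its control libraries held 5057, 5672, 5313 and 6009.8 CPM at 8 h, and LPS libraries held 9092, 8859.6, 11182 and 12458 CPM. The groups did not overlap, and B2m rose 1.89-fold (log2 0.92 ± 0.16 (SE), edgeR adjusted p = 4.80e-06). At 24 h, control libraries held 4686, 4519, 4998 and 5563 and LPS libraries 11122, 13739, 12228 and 13912 CPM, a rise of 2.58-fold (log2 1.37 ± 0.16 (SE), edgeR adjusted p = 1.99e-09). At 72 h the rise was 3.64-fold (log2 1.86 ± 0.18 (SE), edgeR adjusted p = 2.89e-11), from 4091, 3887 and 3358 in control to 12840.3, 13993, 13528 and 14677 CPM with LPS. LPS libraries alone rose from 8 to 72 h (1.32-fold, edgeR adjusted p = 0.0322), a call lost without LPS 8 h replicate 1 (0.122), LPS 8 h replicate 2 (0.116) or LPS 72 h replicate 2 (adjusted p = 0.0669).

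With the extract, B2m libraries held 5263, 5903, 5976 and 5734 CPM at 8 h, overlapping control (fold 1.04, 95% interval 0.835 to 1.29, edgeR adjusted p = 0.875). At 24 h they held 6672, 6804 and 6976 CPM, above every control library (1.38-fold, log2 0.46 ± 0.17 (SE), edgeR adjusted p = 0.0393). That call was lost when any of 6 libraries was left out (replicates 1, 2 and 3 of control and 2, 3 and 4 of extract; edgeR adjusted p 0.0641 to 0.105), and with no filter on low counts (adjusted p = 0.279). At 72 h they held 6393, 6031 and 7116 CPM, a rise of 1.72-fold (log2 0.79 ± 0.18 (SE), edgeR adjusted p = 0.00101). IL-4 libraries spread from 3513 to 8166 CPM at 8 h, the widest of any group for B2m, and B2m was not called with IL-4 at any time (folds 1.13, 1.18 and 1.13).

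The classical heavy chains H2-K1 and H2-D1, which present peptides to CD8+ T cells in this strain, moved by different amounts. H2-K1 libraries held 2087, 1803, 1734 and 2051 CPM in control and 4799, 3970.2, 4369 and 5506 CPM with LPS at 8 h, a rise of 2.43-fold (log2 1.28 ± 0.16 (SE), edgeR adjusted p = 1.01e-08). At 24 h the values were 1474, 1258, 1332 and 1391 against 6523, 5527, 5185 and 6225 CPM (4.3-fold, edgeR adjusted p = 6.75e-14). At 72 h they were 794, 1057 and 1013 against 4586, 8394, 6670.4 and 7943 CPM (7.23-fold, edgeR adjusted p = 1.97e-15). No LPS library overlapped a control library of its time, and LPS 72 h replicate 1, the shallowest of that group at 1.10 M gene counts, was the lowest of its 4.

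H2-D1 was already as abundant as any member but B2m in control, and its folds were the smallest. Control libraries held 4567, 4026, 3686 and 4235 CPM at 8 h and LPS libraries 6304, 5335, 5346 and 5736 CPM (1.38-fold, log2 0.46 ± 0.15 (SE), edgeR adjusted p = 0.00899). At 24 h it stood at 3246, 3362, 3231 and 3196 in control and 6352, 5443, 5006 and 5115 CPM with LPS (1.68-fold, edgeR adjusted p = 6.05e-05). At 72 h it stood at 1591, 2760.1 and 2904 and 4056, 4451, 5123 and 4895 CPM (1.92-fold, edgeR adjusted p = 1.10e-05), with control 72 h replicate 1 far below the other 2 controls. The groups did not overlap at any time, but at 8 h the call was lost with no filter on low counts (adjusted p = 0.291).

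The extract raised H2-K1 and was not seen to raise H2-D1. H2-K1 libraries with the extract held 2847, 2912, 2254 and 2426 CPM at 8 h (1.36-fold, log2 0.44 ± 0.16 (SE), edgeR adjusted p = 0.0297), 2313, 2503 and 2672 at 24 h (1.83-fold, adjusted p = 9.79e-05) and 2854, 2478 and 2834 CPM at 72 h (2.85-fold, adjusted p = 5.15e-08). When control 8 h replicate 2 was left out, H2-K1 no longer passed at 8 h (edgeR adjusted p = 0.0742), nor without extract 8 h replicate 1 (0.0836), and with no filter (0.194). H2-D1 libraries with the extract held 4374, 3802, 3372 and 3521 CPM at 8 h, 2734, 3192 and 3216 at 24 h and 2911, 3051 and 3318 CPM at 72 h. Its folds against control were 0.912 (95% interval 0.743 to 1.12), 0.935 (0.749 to 1.17) and 1.28 (1.01 to 1.62), none called. At 72 h the 3 extract libraries lay above the 3 controls (edgeR adjusted p = 0.12), and H2-D1 was called there without control 72 h replicate 4 (adjusted p = 0.0447).

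The Qa-2 chains H2-Q6 and H2-Q7, non-classical heavy chains whose genes are near copies of each other, had the largest folds at 24 and 72 h of LPS. H2-Q6 held 42.7, 30.7, 25.6 and 32.4 CPM in control at 8 h and 254, 207, 195 and 215 CPM with LPS (6.61-fold, log2 2.72 ± 0.23 (SE), edgeR adjusted p = 2.99e-13). At 24 h it held 19.5, 19.6, 19.7 and 20.3 against 757, 735, 620.0 and 657 CPM (34.9-fold, log2 5.13 ± 0.25 (SE), edgeR adjusted p = 1.27e-19). At 72 h it held 4.24, 8.89 and 7.49 against 271, 324, 363 and 357 CPM (50.2-fold, log2 5.65 ± 0.32 (SE), edgeR adjusted p = 2.82e-17). The groups were far apart at each time. The fold at 72 h was above that at 24 h, a difference not tested, with a lower LPS level and a lower control level. The control libraries at 72 h held 59 counts of H2-Q6 in all, so folds against them rest on few reads. They held 193 counts of H2-Q7 and 72 of Nlrc5.

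H2-Q7 followed the same course at a higher count. It held 90.6, 77.8, 79.4 and 76 CPM in control and 541, 488, 535 and 624 CPM with LPS at 8 h (6.76-fold, edgeR adjusted p = 2.56e-14). Its libraries at 24 h held 39.5, 42.7, 44.6 and 45.4 and 1290.4, 1147, 1067 and 1238 CPM (27.5-fold, edgeR adjusted p = 7.09e-20). At 72 h it held 14.2, 28.8 and 24.1 and 856, 987, 1034 and 1247 CPM (47-fold, edgeR adjusted p = 1.05e-18). With the extract, H2-Q6 libraries held 106, 102, 74.5 and 97.3, then 83.8, 79.5 and 73.2, then 122, 127 and 146 CPM at 8, 24 and 72 h, which are rises of 2.89-fold, 3.98-fold and 20.1-fold (edgeR adjusted p = 4.25e-07, 9.44e-09 and 3.06e-13). H2-Q7 libraries with the extract held 293, 287, 236 and 269, then 204, 214 and 244, then 277, 262 and 291 CPM, rises of 3.35-fold, 5.11-fold and 12.6-fold (edgeR adjusted p = 5.08e-09, 2.48e-11 and 1.93e-13). Every extract library lay above every control library of its time for both genes.

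Reads of 50 bases tell these 2 genes apart only in part. Of the 50-base stretches in the GENCODE M21 transcripts of H2-Q6, 65% were in transcripts of no other gene, and 13.9% were shared with H2-Q7 and 12.3% with H2-Q4. For H2-Q7 73.5% were unique, with 14% shared with H2-Q10. The share was 90.4% for H2-K1, 87.2% for H2-D1, 76.8% for Tapbp (where 20.3% were shared with Gm19412), 88.4% for Tap2, 96.3% for Tapbpl, 96.7% for Tap1, 99.7% for Nlrc5 and all of them for B2m. Summed, the counts of H2-Q6 and H2-Q7 rose with LPS 6.72-fold, 29.9-fold and 47.2-fold at 8, 24 and 72 h, and with the extract 3.22-fold, 4.76-fold and 14.2-fold. H2-Q6 made up 19.4% to 39% of the pair's counts over the 44 libraries, with group medians from 23.6% (control at 72 h) to 36.9% (LPS at 24 h).

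The peptide transporter subunits rose together, Tap1 by more than Tap2. Tap1 held 103, 59.9, 54.5 and 60.6 CPM in control at 8 h, with control 8 h replicate 1 above the other 3, and 946, 847, 866 and 928 CPM with LPS (12.9-fold, log2 3.69 ± 0.19 (SE), edgeR adjusted p = 1.85e-19). At 24 h it held 61.5, 54.8, 53.1 and 52.8 and 781, 593, 569 and 629 CPM (11.6-fold, edgeR adjusted p = 1.04e-18). At 72 h it held 24, 26.7 and 38.5 and 237, 425, 389 and 404 CPM (12.5-fold, edgeR adjusted p = 1.60e-16). The level with LPS was highest at 8 h and lowest at 72 h, while the 3 folds differed by less than their standard errors on the log2 scale, and the control mean was lower at 72 h as well.

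Tap2 held 29.9, 25.6, 22.9 and 28.1 CPM in control at 8 h and 180.0, 171, 204 and 219.8 CPM with LPS (7.27-fold, log2 2.86 ± 0.19 (SE), edgeR adjusted p = 4.54e-16). The 24 h libraries held 33.1, 20.7, 29.4 and 29 and 199, 162, 182 and 218 CPM (6.82-fold, adjusted p = 1.88e-15), and at 72 h 15.3, 19.6 and 27.8 and 59.8, 156, 128 and 117 CPM (5.82-fold, edgeR adjusted p = 5.96e-12), where the shallow LPS 72 h replicate 1 was the lowest. With the extract Tap1 libraries held 218, 166, 147 and 159 CPM at 8 h, 208, 237 and 212 at 24 h and 162, 151 and 153 CPM at 72 h, rises of 2.48-fold, 3.95-fold and 5.31-fold (edgeR adjusted p = 9.16e-08, 3.66e-11 and 5.04e-11). Tap2 libraries with the extract held 57.4, 59.2, 61.7 and 59.9 CPM, 48.8, 64.3 and 58.2 and 47.6, 40.5 and 44.4 CPM, rises of 2.23-fold, 2.05-fold and 2.2-fold (edgeR adjusted p = 2.68e-06, 6.12e-05 and 2.78e-04). Every extract library of both subunits lay above every control library of its time.

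The peptide editors tapasin (Tapbp) and TAPBPR (Tapbpl) also rose. Tapbp held 268, 252, 166 and 254 CPM in control at 8 h and 1516, 1322, 1241 and 1393 CPM with LPS (5.81-fold, log2 2.54 ± 0.15 (SE), edgeR adjusted p = 1.28e-17). At 24 h it held 240.3, 211, 181 and 175 and 1565, 1323, 1251 and 1338 CPM (6.79-fold, adjusted p = 2.43e-18), and at 72 h 119.8, 129.8 and 137 and 565, 736, 724 and 749 CPM (5.39-fold, edgeR adjusted p = 6.75e-15). Its lowest control at 8 h was replicate 3, in which ambiguous reads made up 16.1% of all reads assigned to a gene or ambiguous, against 3.41% to 4.53% in the other 3 controls of that time, and its lowest extract library at 8 h was also replicate 3 (13.8%). The same control library was lowest for H2-K1, H2-D1, H2-Q6, Tap1, Tap2 and Nlrc5, but not for B2m, H2-Q7 and Tapbpl. Extract 8 h replicate 3 was lowest for H2-K1, H2-D1, H2-Q6, H2-Q7 and Tap1 too, and not for B2m, Tap2, Tapbpl and Nlrc5. Ambiguous reads were 11.1% to 17.3% in replicate 3 of control (each time), extract (8 and 72 h) and LPS (24 and 72 h). They were 3.92% to 4.60% in replicate 3 of every other group. The part of ambiguous reads in the values of any member was not tested. With the extract Tapbp held 509, 544, 371 and 432 CPM at 8 h, 764, 725 and 744 at 24 h and 315, 325 and 326 CPM at 72 h, rises of 1.97-fold, 3.69-fold and 2.5-fold (edgeR adjusted p = 6.53e-07, 8.83e-13 and 1.09e-07).

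Tapbpl held 31.9, 27.6, 35.3 and 28.2 CPM in control and 169.6, 149, 193 and 195 CPM with LPS at 8 h (5.75-fold, log2 2.52 ± 0.27 (SE), edgeR adjusted p = 2.45e-10), and 16.5, 23.3, 27.7 and 19.7 against 195, 159, 207 and 215 CPM at 24 h (8.8-fold, edgeR adjusted p = 2.53e-12). At 72 h it held 29.3, 26.7 and 24.6 in control and 525, 175, 161 and 161 CPM with LPS (9.21-fold, edgeR adjusted p = 1.58e-10). The first of these LPS libraries, the shallow replicate 1, held about as much as the other 3 together, and without it the rise was 5.94-fold. With the extract Tapbpl held 76.8, 69, 79.4 and 69.9 CPM at 8 h, 70.5, 73.7 and 77.6 at 24 h and 67.5, 76.9 and 65.2 CPM at 72 h, rises of 2.4-fold, 3.35-fold and 2.57-fold (edgeR adjusted p = 1.86e-04, 4.83e-06 and 0.00143). Extract libraries were all above control and all below LPS libraries at each time.

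The activator Nlrc5 had the largest fold of the 10 at 8 h of LPS and then came down. It held 24.3, 23.8, 11.3 and 16.2 CPM in control and 302, 338, 314 and 267 CPM with LPS at 8 h (15.9-fold, log2 3.99 ± 0.22 (SE), edgeR adjusted p = 1.55e-18). At 24 h it held 15.6, 23.6, 19.7 and 17.1 and 162, 188, 144 and 149.9 CPM (8.39-fold, edgeR adjusted p = 2.65e-15), and at 72 h 6.15, 9.6 and 8.56 and 25.1, 72.3, 87.1 and 69.7 CPM (8.41-fold, edgeR adjusted p = 8.72e-12). LPS libraries at 72 h lay below all those at 8 h, and again replicate 1 stood apart, here as the lowest. With the extract the course was flatter, with 56.6, 38.9, 41.6 and 48.1 CPM at 8 h (2.41-fold), 80.8, 83.5 and 68.5 at 24 h (4.05-fold) and 42.1, 45 and 48.5 CPM at 72 h (5.73-fold, edgeR adjusted p = 3.68e-06, 9.63e-10 and 9.97e-09).

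**Figure D3:**
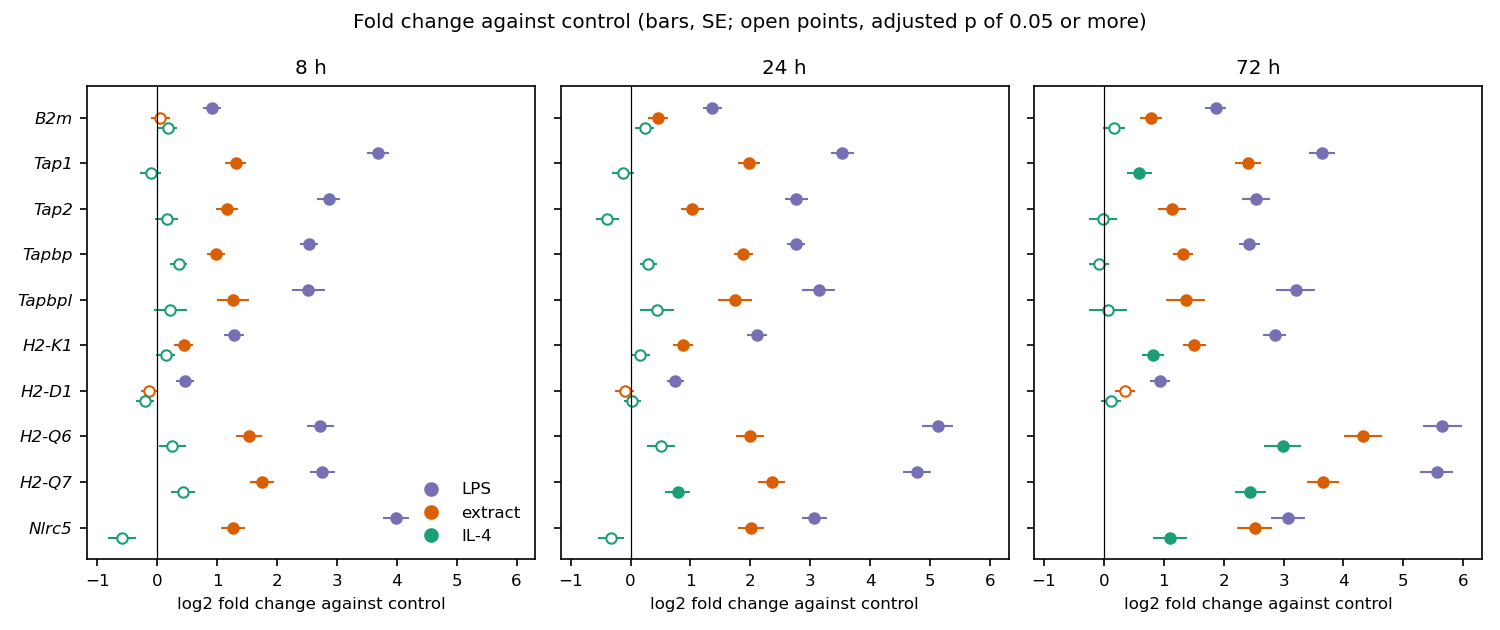
Log2 fold change against control of the same time for each gene, with SE, for LPS, extract and IL-4 at 8, 24 and 72 h (filled points passed the test). LPS points are all filled and lie furthest right, from 0.46 for H2-D1 at 8 h to 5.65 for H2-Q6 at 72 h, and the IL-4 points furthest from 0 are those of H2-Q6 (2.98) and H2-Q7 (2.45) at 72 h.

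Compared directly, the extract left these genes below LPS: all 10 were lower with the extract at 8 h and at 24 h and 9 at 72 h. Of all tested genes, 15.1%, 8.76% and 11.4% were called lower with the extract at those times. Each agent was given at a single dose, so the comparison is of these doses. At 8 h the widest gaps were in Nlrc5 (6.59-fold lower, log2 -2.72 ± 0.21 (SE), edgeR adjusted p = 5.56e-14) and Tap1 (5.19-fold lower, edgeR adjusted p = 3.82e-14), and the narrowest was in H2-D1 (1.51-fold lower, adjusted p = 0.00155). H2-D1 lost its call with no filter at 8 h (0.168) and at 72 h (0.199). At 24 h the widest gaps were in H2-Q6 (8.77-fold lower, log2 -3.13 ± 0.26 (SE), edgeR adjusted p = 3.52e-12) and H2-Q7 (5.38-fold lower, edgeR adjusted p = 1.32e-10), and Tapbp was 1.84-fold lower (adjusted p = 4.53e-05). At 72 h H2-Q7 was 3.72-fold lower and Tapbpl 3.58-fold lower (edgeR adjusted p = 3.30e-08 and 8.18e-06), the latter 2.26-fold without LPS 72 h replicate 1. B2m was 1.82-fold, 1.87-fold and 2.11-fold lower at 8, 24 and 72 h (edgeR adjusted p = 2.41e-05, 1.12e-04 and 8.06e-06). Nlrc5 was the member not called at 72 h (log2 -0.55, 95% interval of the fold 0.50 to 0.927, edgeR adjusted p = 0.0649), and it was called without LPS 72 h replicate 1 (log2 -0.68, adjusted p = 0.00777). Extract and LPS libraries did not overlap in any other of the 30 cases. The share of all tested genes without such overlap was not counted.

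**Figure D4:**
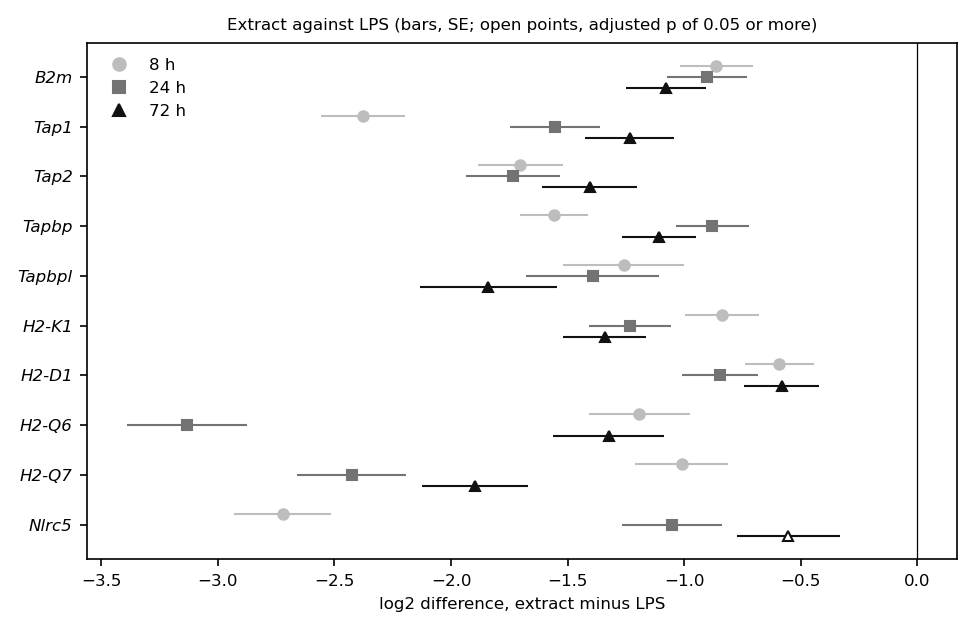
Log2 difference between extract and LPS libraries for each gene, with SE, at 8, 24 and 72 h (open point, not called). All 30 points lie to the left of 0, from -3.13 for H2-Q6 at 24 h to -0.55 for Nlrc5 at 72 h, the 1 open point.

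IL-4, which drives alternative activation, moved few of these genes. At 8 h none passed the edgeR test, where 3 had an unadjusted p under 0.05. Against control of the same time, H2-Q7 was higher at 24 h, and H2-Q6, H2-Q7, Nlrc5, H2-K1 and Tap1 were higher at 72 h. These calls at 72 h stand against a control that had itself fallen. From 8 to 72 h the mean of H2-K1 went from 1919 to 955 CPM in control and from 2118 to 1693 CPM with IL-4. That of Tap1 went from 69.6 to 29.7 and from 64.3 to 44.1 CPM. The IL-4 means of H2-Q6, H2-Q7 and Nlrc5 were above those at 8 h, with no call. Tapbp was called higher at 8 h by DESeq2 alone (DESeq2 adjusted p = 0.0421). H2-Q7 held 89.3, 71.1, 73.7 and 67.1 CPM with IL-4 at 24 h, all above control (1.73-fold, log2 0.79 ± 0.21 (SE), edgeR adjusted p = 0.0091). At 72 h it held 69.9, 207 and 82.7 CPM (5.45-fold, log2 2.45 ± 0.26 (SE), edgeR adjusted p = 1.72e-09), and H2-Q6 held 32.3, 88.7 and 35 CPM (7.9-fold, log2 2.98 ± 0.31 (SE), edgeR adjusted p = 1.96e-09). The second of these 3 libraries, IL-4 72 h replicate 3, was far above the other libraries for both genes, and without it the folds were 3.5 for H2-Q7 and 5.17 for H2-Q6. Nlrc5 held 16.9, 18.3 and 15.6 CPM (2.15-fold, edgeR adjusted p = 0.0043, and 0.0603 without control 72 h replicate 1). H2-K1 held 1451, 2119 and 1508 CPM (1.77-fold, edgeR adjusted p = 9.14e-04). Tap1 held 42.2, 50.3 and 39.7 CPM (1.51-fold, edgeR adjusted p = 0.0388), and its call was lost under RLE scaling (adjusted p = 0.103), with DESeq2 (0.084) and without control 72 h replicate 1 or 3 or IL-4 72 h replicate 2 or 3 (0.0556 to 0.186). Every IL-4 library of these 5 genes lay above every control library at 72 h, and how many of all tested genes did so was not counted.

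The other members had small values with IL-4. At 8 h Tapbp held 301, 307, 314 and 283 CPM, above every control library but not called (log2 0.36, edgeR adjusted p = 0.134). Nlrc5 held 14, 14.1, 9.32 and 12.3 CPM at 8 h (log2 -0.59, edgeR adjusted p = 0.121), and was called lower without control 8 h replicate 3 (adjusted p = 0.0318) and with no filter on low counts (0.0321). Tapbpl at 24 h held 67.5, 22.2, 22.9 and 25.1 CPM, of which the first came from the shallowest library (0.908 M gene counts). H2-D1 lay at folds of 0.87, 1.02 and 1.09 at 8, 24 and 72 h, and Tap2 at 1.12, 0.763 and 0.989, none called.

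Over time without a stimulus, 8 of the 10 genes fell between 8 and 72 h, where 7.16% of all tested genes were called lower. H2-Q6 fell furthest (5.01-fold, log2 -2.32 ± 0.31 (SE), edgeR adjusted p = 8.35e-07), followed by H2-Q7 (3.68-fold, edgeR adjusted p = 6.18e-07), Nlrc5 (2.44-fold, adjusted p = 0.00152) and Tap1 (2.38-fold, adjusted p = 3.60e-05). H2-K1 fell 2.01-fold, Tapbp 1.83-fold, H2-D1 1.71-fold and B2m 1.46-fold (edgeR adjusted p = 9.31e-05, 2.05e-04, 0.00104 and 0.0275). The control libraries at 72 h lay below all those at 8 h for each of the 8, a separation not counted over all tested genes. The call of H2-D1 was lost in a fit of the compared groups alone (edgeR adjusted p = 0.0615). That of B2m was lost there too (0.0657), under RLE scaling (0.064), with no filter (0.154) and without any of 5 libraries (control 8 h replicate 2 or 4, or control 72 h replicate 1, 3 or 4; 0.0535 to 0.11). Tap2 (log2 -0.40, 95% interval -0.85 to 0.05) and Tapbpl (log2 -0.18, -0.80 to 0.43) were not called.

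In the same control libraries, markers of other cell types differed between times: the 6 fibroblast genes summed to 141 to 159.5 CPM at 8 h and 487 to 1090.2 at 72 h, and the 6 mesothelial genes to 9.83 to 14.8 and 64.2 to 97.1 CPM. At 72 h the fibroblast sum was 158 to 291 CPM with LPS, 196 to 230.2 with the extract and 89.9 to 204 with IL-4, all below control. The 9 macrophage markers summed to 18022 to 18881 CPM in control at 8 h and 12644 to 20839 at 72 h. With the extract they stood above control, at 23709 to 24332 CPM at 24 h (control 13567 to 19146) and 30136 to 34773 CPM at 72 h, and their part in the extract's rises was not tested. In bulk libraries, fewer cells of a type and less RNA per cell cannot be told apart, and the part of these cells in the values at 72 h was not tested. At 8 h of LPS the T cell markers summed to 22.6 to 29.9 CPM, of which Lck reached 25.8, against 4.0 to 5.16 in control. There B cell markers (5 genes) summed to 20.3 to 24.3 against 7.67 to 9.74 CPM, of which Ms4a1 reached 18.2. No other B cell gene was above 3.73 CPM in any library. Dendritic cell markers (6 genes) summed to 24.6 to 45 at 8 h of LPS, against 7.14 to 15.3 CPM. At 72 h of LPS neutrophil markers (6 genes) summed to 9.34 to 15.3 against 1.06 to 3.21 CPM, of which Camp reached 12.9. No other neutrophil gene was above 2.14 CPM in any library, so that sum rests mostly on Camp. The part of these cells in the LPS rises was not tested either.

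With LPS the members moved in both directions between 8 and 72 h. H2-Q7 (1.89-fold), H2-Q6 (1.52-fold), H2-K1 (1.48-fold) and B2m (1.32-fold), chains of the complex other than H2-D1, rose. Over all tested genes 21.6% were called higher. Nlrc5 (4.6-fold), Tap1 (2.45-fold), Tapbp (1.97-fold) and Tap2 (1.65-fold) fell (edgeR adjusted p = 1.25e-11, 6.24e-08, 4.14e-07 and 0.00106). They are the activator and genes of transport and loading other than Tapbpl. Over all tested genes 21.9% were called lower. The edgeR adjusted p for the rises was 2.16e-04 for H2-Q7, 0.0202 for H2-Q6 and 0.00339 for H2-K1, and that of H2-Q6 was lost without LPS 8 h replicate 2, 3 or 4 (0.0508 to 0.060). H2-D1 (log2 -0.29, adjusted p = 0.105) and Tapbpl (log2 0.50, adjusted p = 0.118) were not called, and the value of Tapbpl turned on LPS 72 h replicate 1. Without that library its log2 change was -0.10 (adjusted p = 0.757), while it was called higher without LPS 72 h replicate 3 or 4 (0.0286 to 0.0311) and with no filter (0.0153). With the extract, Tapbp fell 1.44-fold (edgeR adjusted p = 0.00829) and no other member was called (with no filter Tapbp had 0.0973), where 13.4% of tested genes were called lower. With IL-4, Tapbp (2.46-fold, edgeR adjusted p = 1.34e-07), B2m, Tap1, Tap2 and H2-D1 were called lower, where 8.74% of genes were. The count of IL-4 calls depended on single libraries, with 1 to 4 members called when each of the 7 libraries was left out in turn, fewest without IL-4 8 h replicate 4 or IL-4 72 h replicate 2 or 4.

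The stimulus effects at 72 h were also set against those at 8 h, as differences of log2 fold changes. The 3 stimuli share the 8 h and 72 h control libraries, whose own fall enters each difference. For LPS, 4 members had a larger effect at 72 h (H2-Q6, H2-Q7, H2-K1 and B2m; 15.7% of tested genes) and Nlrc5 a smaller one (14.3%). The log2 difference was 2.92 ± 0.37 (SE) for H2-Q6 and 1.57 ± 0.24 for H2-K1 (edgeR adjusted p = 6.39e-08 and 1.43e-06). That of Nlrc5 was -0.92 ± 0.35 (adjusted p = 0.0416), a call lost without any of 7 libraries (replicates 3 and 4 of control at 8 h, 2 and 3 of LPS at 8 h, 3 and 4 of control at 72 h, and 4 of LPS at 72 h; 0.0539 to 0.144). For the extract, 6 members had a larger effect at 72 h (H2-Q6, H2-Q7, Nlrc5, Tap1, H2-K1 and B2m; 13.1% of tested genes), from 0.73 for B2m to 2.79 for H2-Q6. That of B2m (edgeR adjusted p = 0.0225) lost its call under RLE scaling (0.0583), with no filter (0.176) and without control 72 h replicate 3 or 4 or extract 72 h replicate 4 (0.0623 to 0.0652), and that of Nlrc5 without control 72 h replicate 1 (0.0575). For IL-4, 4 did (H2-Q6, H2-Q7, Nlrc5 and H2-K1; 9.51%). That of H2-K1 was 0.68 (edgeR adjusted p = 0.0478) and lost its call in 15 of 21 alternatives, among them RLE scaling (0.12), DESeq2 (0.0891) and 9 of the 14 left-out libraries (replicates 1, 2 and 4 of control and 1, 2 and 3 of IL-4 at 8 h, and 1 and 4 of control and 3 of IL-4 at 72 h, 0.0557 to 0.166). Without IL-4 72 h replicate 3 the log2 differences were 2.12 for H2-Q6, against 2.73 with it, and 1.39 for H2-Q7, against 2.02. H2-Q6 shows how the control enters: its IL-4 libraries held 38.7 ± 11.3 CPM (mean ± SD) at 8 h and 52 ± 31.8 at 72 h (log2 0.40, not called), while control fell from 32.8 ± 7.17 to 6.87 ± 2.39 CPM.

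Several genes that feed the pathway also rose. Of 18 tested genes of peptide supply and loading, 8 were called higher and 1 lower with LPS at 24 h, where 18.6% of all tested genes were called higher and 19.3% lower, and 9 higher and 0 lower with the extract, where 11.7% and 10.4% were. The median log2 was 0.36 and 0.40, against -0.07 and -0.06 for all genes. Psme2 and Psme1, subunits of the proteasome activator PA28, stood at 62.2 and 84.5 CPM in control at 24 h, 343 and 216 with the extract and 642 and 524 CPM with LPS. The immunoproteasome subunit genes Psmb9 and Psmb8, neighbours of Tap1 and Tap2, rose 6.49-fold and 7.28-fold with LPS and 2.76-fold and 2.77-fold with the extract at 24 h (edgeR adjusted p = 2.20e-14, 2.53e-12, 3.54e-07 and 1.86e-05). Psme2 rose 10.3-fold with LPS and 5.48-fold with the extract (edgeR adjusted p = 1.11e-14 and 1.90e-10).

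Of 18 tested genes of other class I and class I-like chains, 11 were called higher and 2 lower with LPS at 24 h. With the extract 7 were called higher and 2 lower (median log2 1.78 with LPS and 0.56 with the extract, against -0.07 and -0.06 for all genes). Over all tested genes 18.6% were called higher and 19.3% lower with LPS, and 11.7% and 10.4% with the extract. H2-Q5 and H2-Q4, neighbours of H2-Q6 and H2-Q7 that share reads with them, rose 15.1-fold and 7.88-fold with LPS and 3.65-fold and 2.37-fold with the extract at 24 h (edgeR adjusted p = 1.69e-19, 9.60e-19, 1.55e-09 and 4.73e-08). With IL-4 at 72 h they stood 4.27-fold and 3.05-fold above control (edgeR adjusted p = 6.77e-06 and 1.45e-08), and H2-Q6 and H2-Q7 were above it too. H2-M2, a non-classical chain, went from 55.3 CPM in control to 5755 CPM with LPS at 72 h (104-fold, log2 6.70 ± 0.79 (SE), edgeR adjusted p = 4.95e-09). LPS 72 h libraries of H2-M2 ran from 2779 to 13613 CPM with a median of 3313, and without LPS 72 h replicate 1 the log2 change was 5.78 (edgeR adjusted p = 1.30e-08). H2-M2 rose 59.1-fold with the extract at 24 h (edgeR adjusted p = 4.59e-09). Cd1d1, which presents lipids in place of peptides, rose 9.9-fold with LPS and 10.6-fold with the extract at 24 h (edgeR adjusted p = 9.77e-18 and 5.77e-17), and at 8 h with the extract (2.22-fold, adjusted p = 1.82e-06), where with LPS its log2 change was 0.14 (adjusted p = 0.588). H2-T10, a non-classical chain, rose 9.52-fold with LPS and 2.08-fold with the extract at 24 h (edgeR adjusted p = 2.09e-14 and 0.00176).

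Among 16 tested regulators of class I genes, 9 were called higher and 0 lower with LPS at 24 h. With the extract 9 were called higher and 0 lower (median log2 1.14 with LPS and 0.74 with the extract, against -0.07 and -0.06 for all genes). The shares of all tested genes called higher and lower were 18.6% and 19.3% with LPS and 11.7% and 10.4% with the extract. Irf1, a transcription factor that binds response elements of class I genes, stood at 56.2 CPM in control, 462 with the extract and 1284 CPM with LPS at 8 h, rises of 8.2-fold and 22.8-fold (edgeR adjusted p = 1.76e-14 and 2.29e-19). Stat2, which carries type I interferon signals to the nucleus, rose 14.2-fold with LPS and 1.79-fold with the extract at 8 h (edgeR adjusted p = 2.79e-23 and 3.23e-06). At 24 h its rises were 11.8-fold with LPS and 4.13-fold with the extract (edgeR adjusted p = 4.39e-22 and 1.21e-14). Irf7, a factor of the type I interferon response, rose 48.6-fold with LPS at 8 h (edgeR adjusted p = 1.53e-14), where with the extract its log2 change was -0.61 (95% interval -1.34 to 0.12, adjusted p = 0.228). In control at 8 h 1 library, replicate 1, held 77.4 CPM of Irf7, against a median of 20.3. Without it the log2 change was 6.39 with LPS and 0.18 with the extract (edgeR adjusted p = 1.67e-16 and 0.772). The extract change was called lower with no filter on low counts (0.0333). By 24 h it had risen 8.42-fold with the extract (edgeR adjusted p = 6.62e-08).

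Of the interferon and receptor list, 5 genes passed the filter. With LPS at 24 h 4 were called higher and 1 lower, where 18.6% and 19.3% of all tested genes were. With the extract 3 were called higher and 1 lower, where 11.7% and 10.4% were. Ifng, the interferon of NK and T cells, stood at 0.863 ± 0.777 CPM in control, 6.03 ± 2.57 with the extract and 43 ± 12 CPM with LPS at 8 h (mean ± SD, n = 4; 7.7-fold and 54.7-fold, edgeR adjusted p = 7.38e-07 and 8.43e-15). Without control 8 h replicate 1 the log2 changes of Ifng were 3.87 and 6.70, against 2.95 and 5.77 with it. In those groups the NK markers summed to 0.32 to 1.24, 0.507 to 1.86 and 1.84 to 3.81 CPM, and the part of such cells was not tested. The receptor chain Ifngr1 fell with LPS and with the extract at 8 h (2.3-fold and 1.31-fold, edgeR adjusted p = 1.89e-11 and 0.00666) and rose with IL-4 (1.64-fold, adjusted p = 1.88e-05). The extract call of Ifngr1 was lost without extract 8 h replicate 2 (0.0816) and with no filter (0.224). The type I interferon receptor chains Ifnar2 and Ifnar1 rose 2.55-fold and 1.57-fold (a call that Ifnar1 lost without control 24 h replicate 4) with LPS and 2.03-fold and 1.83-fold with the extract at 24 h (edgeR adjusted p = 7.07e-11, 0.0135, 3.61e-07 and 0.00319).

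Over the 12 group means of log2 CPM the 10 genes followed each other, with Pearson correlations from 0.758 to 0.991 over the 45 pairs (median 0.906). These are descriptions over groups that share libraries, scaling and controls. Tap1 was closest to the mean course of the members (r = 0.984) and H2-D1 farthest from it (0.866). Outside the members, the genes with a mean of at least 10 CPM most like that course were Il2rg (0.982), Batf2 (0.981), Ube2l6 (0.977), Lgals3bp (0.977), Parp10 (0.976) and Cst7 (0.974). Batf2, a transcription factor, was 39-fold above control with LPS and 6.99-fold with the extract at 24 h, and Il2rg, the shared receptor chain of IL-2 family cytokines, 4.92-fold and 2.82-fold.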

How the data were processed

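The authors' deposited table holds raw counts of reads per gene, 1 column per library. PolyA RNA was made into libraries with Diagenode CATS kits and read as single ends of 50 bases, per the labels' protocols. The submitters' processing notes name cutadapt, Bowtie2, TopHat2 2.1.1, HTSeq, DESeq, edgeR and the build mm10, with no role for each. For the annotation release and the strand setting, nothing is stated in those notes or the labels. The 5 summary entries of each library (ambiguous, not unique and others) stayed out of library sizes and tests. Ambiguous reads were 3.16% to 17.3% of gene counts plus ambiguous reads (5.39% over all libraries), and no 2 libraries of the same group agreed within sampling noise.

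The counts were tested as deposited with edgeR 4.0.16 (R 4.3.3): genes were kept by filterByExpr at a minimum count of 10, scaled by TMM, and fitted in 1 quasi-likelihood model of 12 groups over 44 libraries (32 residual degrees of freedom). Every p-value was adjusted by the Benjamini-Hochberg method over all 14537 genes, with a threshold of 0.05, and comparisons that share control libraries are not independent. CPM used TMM library sizes, and log2 CPM a pseudocount of 0.5. The method was tested on simulated data with known changes. Depth ran from 0.908 to 26.6 M gene counts and limits precision most in the 5 libraries under 2 M. Alternatives were RLE size factors, no filter, DESeq2 1.42.0, a fit of the compared groups alone, a replicate block, each library left out in turn, both first control libraries (8 and 24 h) left out, libraries under 2 M left out, and H2-Q6 and H2-Q7 summed.

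The 10 genes, the lists of other pathway genes and the cell type markers were chosen with earlier results of these data known. All 10 members are named. From each pathway list the text names the genes that the rule of the design picks by size of change, except 1 that is not reported here, and the likeness rule takes the 6 genes with a mean of at least 10 CPM whose 12 group means correlate best with the members' mean course.

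The labels number the replicates. Deviations from the group means of same-numbered libraries correlated above 0.1 in every pair, with 3 or more pairs, for LPS against control at 8 h (4 pairs, lowest 0.135) and 24 h (4, 0.133), extract against control at 8 h (4, 0.154), extract against LPS at 24 h (3, 0.103) and extract at 72 h against 8 h (3, 0.275), and not for the other comparisons. Libraries of different numbers reached 0.392 for LPS against control at 8 h and 0.405 for extract against control at 8 h. They reached 0.385 for extract at 72 h against 8 h, so in these comparisons some exceeded the lowest same-numbered pair. For LPS against control and extract against LPS at 24 h they reached 0.109 and 0.101.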

Additional observations from a re-analysis of the deposited data

Results flagged for a closer look

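Among 80 sets of 4 libraries (10 genes in 8 groups), 7 had a library far from the other 3 by Dixon's test, where chance flags about 1 in 20. Tap1 held 103 CPM in control 8 h replicate 1, against 54.5 to 60.6 in the other 3. Tapbp held 166 CPM in control 8 h replicate 3, below 252 to 268. The shallow LPS 72 h replicate 1 held 525 CPM of Tapbpl, above 161 to 175, and 565 CPM of Tapbp, below 724 to 749. IL-4 24 h replicate 1, the shallowest library, stood above the others for Tap1 (68.6 CPM), Tapbpl (67.5 CPM) and H2-D1 (4362 CPM).

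The effect of a stimulus at 72 h differed from that at 8 h in 15 cases by edgeR's test of the difference itself, and the 3 stimuli share the control libraries. As log2 differences, the LPS effect was larger at 72 h for H2-Q6 (2.92), H2-Q7 (2.80), H2-K1 (1.57) and B2m (0.95) and smaller for Nlrc5 (-0.92). The extract effect was larger at 72 h for H2-Q6 (2.79), H2-Q7 (1.91), Nlrc5 (1.25), Tap1 (1.10), H2-K1 (1.07) and B2m (0.73). The IL-4 effect was larger at 72 h for H2-Q6 (2.73), H2-Q7 (2.02), Nlrc5 (1.70) and H2-K1 (0.68), of which H2-K1 (edgeR adjusted p = 0.0478) lost its call in 15 of 21 alternatives. Calls of B2m and Nlrc5 with the extract and of Nlrc5 with LPS were also lost under some alternatives.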

How the results depend on the processing

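Of 2840 log2 values of the 10 genes under the alternatives, 127 changed their call, in 35 of 190 gene comparisons, and no called value changed sign. Of 284 counts of called members, 15 moved by over 1.5 times, in 4 of 19 comparisons, and the causes were not tested. For IL-4 against control at 8 h the count of 0 became 1 with no filter (lower) and 1 with DESeq2 (higher), and was 0 to 1 with each library left out. For IL-4 at 72 h it was 3 to 5 with each library left out, lowest without control 72 h replicate 1. For the extract at 72 h against 8 h the count of 1 became 0 with no filter, 4 in a fit of the compared groups alone, 3 without libraries under 2 M gene counts and 2 with DESeq2. For IL-4 at 72 h against 8 h the count of 5 became 1 with no filter, 3 with the replicate block, 1 in a fit of the compared groups alone, and 1 to 4 with each library left out. The replicate block changed no other call of a member, and the replicate numbers of that comparison do not pair its libraries (lowest correlation 0.007). On its own H2-Q6 had a log2 change of 0.51 with IL-4 at 24 h (edgeR adjusted p = 0.185), against 0.73 for its sum with H2-Q7 (0.0152). RLE size factors moved the median log2 change of all genes by over 0.1 for IL-4 at 72 h, from -0.001 to -0.112. For the IL-4 effect at 72 h minus that at 8 h, this median went from 0.049 to -0.100. For the same difference of the extract it went from 0.072 to -0.059. Depth limits IL-4 at 8 h most, where 2 of 4 libraries hold under 2 M gene counts.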
